A study of Mus musculus with 8 samples.

Results

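The 10 genes described here encode the ligands, receptors and soluble antagonists of interleukin-1 and interleukin-18: Il1a, Il1b, Il1rn, Il1r1, Il1r2, Il1rap, Il18, Il18r1, Il18rap and Il18bp. They were picked by gene symbol from a mouse array of 25697 probes that carry 18138 symbols. All 10 were on the array, with 18 probes in total. Of these probes, 13 were detected on at least 2 arrays and could be tested, which left at least 1 tested probe for each gene, and 5 were too dim to test. Il1b, Il1a and Il1rn mRNA were highest in M1 macrophages labelled iNOSKO, the decoy receptor gene Il1r2 was near background only in unstimulated WT cells, and Il18r1 was on in unstimulated iNOSKO and in WT M1 cells and undetected in the other groups.

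Bone marrow cells came from female C57BL/6J mice (WT) or from iNOS-deficient mice (iNOSKO in the labels), 8 weeks old, carrying Nos2tm1Lau, and grew for 7 days with GM-CSF at 10 ng/ml into bone marrow-derived macrophages. GM-CSF cultures are known to hold dendritic cell-like cells beside macrophages. The cells were left unstimulated (CON) or received LPS (200 ng/ml), a bacterial Toll-like receptor agonist, plus IFN-γ (10 ng/ml) for 6 h, which drives M1 activation. Each of the groups WT CON, WT M1, iNOSKO CON and iNOSKO M1 was measured on 2 arrays, 8 in all. The iNOS mutation is a germline deletion carried by every cell of the donor, and all groups share the GM-CSF culture. Nothing in the labels tells if the arrays of a group stand for separate mice, and the p-values then measure only the spread between these arrays.

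Both IL-1 ligands, IL-1α (Il1a) and IL-1β (Il1b), signal through the receptor IL-1R1 (Il1r1) once its partner IL-1RAcP (Il1rap) joins. The antagonist IL-1Ra (Il1rn) occupies IL-1R1 without signalling, and IL-1R2 (Il1r2) is a decoy that binds ligand but lacks the signalling domain. IL-18 uses a receptor of the same family, built from Il18r1 and Il18rap, and is neutralised by the secreted binding protein Il18bp. Activated macrophages are a main source of IL-1β, which is made as a precursor and cut by caspase-1 in the inflammasome.

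Values are bead-averaged probe intensities, brought to a common scale on probes of stable rank. They have no physical unit, and the level of a probe cannot be set against that of another probe. A probe was detected when its intensity exceeded the negative control beads with a detection p-value below 0.05. Fold changes were fitted on the log2 scale with values below 1 set to 1, and a change was called when its limma p-value, adjusted over 13868 probes, was below 0.05. Where a change is given as a lower bound (at least N-fold), the p-value beside it is that of this fit, not of the bound. The arrays had between 46.0% and 49.3% of probes detected, scale factors ran from 0.801 to 1.30, and the median difference between both arrays of a group was 0.161 to 0.188 on the log2 scale.

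The targeted gene Nos2 did not separate the genotypes. Its probe, at base 3546 of the transcript, was undetected on all unstimulated arrays, read 175.3 and 131.8 on the WT M1 arrays and read 183.5 and 206.4 on the iNOSKO M1 arrays. The M1 difference was 0.36 ± 0.32 (log2 ± SE, adjusted p = 0.397). The file does not say whether the probe lies within the deleted part of the gene, so this probe checks no label, and the groups are named here by their labels alone.

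Among the 13 tested probes of the 10 genes, M1 activation of WT cells raised 10 (8 genes) and lowered 0. Of all tested probes, 20.2% were called higher and 14.9% lower in that comparison. In the cells labelled iNOSKO the same stimulus raised 8 probes (6 genes) and lowered 1, against 26.2% and 23.8% of all probes. Between the M1 groups, 5 probes (4 genes) were higher and 1 was lower in iNOSKO, against 24.2% and 24.3% of all probes. Between the unstimulated groups, 5 probes (5 genes) were higher and 1 lower in iNOSKO, against 15.9% and 16.2%. The change on activation itself differed between genotypes for 7 probes, 3 upward in iNOSKO (2 genes) and 4 downward, against 20.8% and 21.1%. The median log2 change of the 13 probes was 2.59 on activation of WT cells and 0.81 between the M1 groups, beside medians of 0.07 and 0 over all probes. It was 1.37 on activation of iNOSKO cells, 0.50 between the unstimulated groups and -0.15 for the difference of responses (0.04, -0.02 and 0.01 over all probes). A probe that passed the detection filter only through the group where it is high tends to differ by selection. These counts and medians therefore describe the genes and test nothing.

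**Figure D1:**
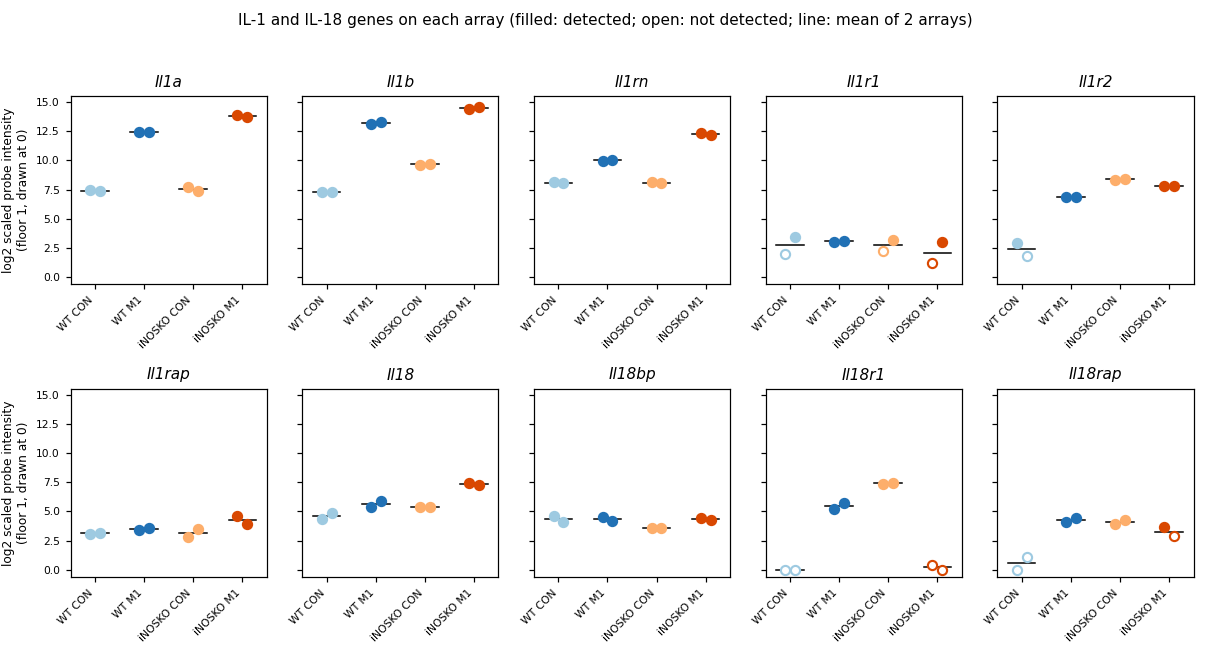
Log2 scaled intensity of the brightest probe of each of the 10 genes on each of the 8 arrays (values below 1 set to 1, drawn at 0). Filled points were detected, open points were not, and the line is the mean of 2 arrays. Il1a, Il1b and Il1rn are highest on the iNOSKO M1 arrays, whereas Il18r1 is detected only on the WT M1 and iNOSKO CON arrays.

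Il1b, the main secreted IL-1 of macrophages, read 157.9 and 156.1 on the WT CON arrays, 801.4 and 823.8 on iNOSKO CON, 8665 and 9878 on WT M1 and 20902 and 24384.8 on iNOSKO M1. The groups do not overlap, and they follow that order. Every step between neighbours in the order was called. Unstimulated iNOSKO cells exceeded unstimulated WT cells by 2.37 ± 0.12 (log2 ± SE, adjusted p = 0.000209). They stayed 3.51 ± 0.12 below WT M1 cells (adjusted p = 0.000165), and iNOSKO M1 cells lay 1.29 ± 0.12 above WT M1 cells (adjusted p = 0.000784). The change on activation was smaller in iNOSKO (4.80 ± 0.12, adjusted p = 1.74e-05) than in WT (5.88 ± 0.12, adjusted p = 1.66e-05), with a difference of -1.08 ± 0.16 (adjusted p = 0.00540). On the iNOSKO M1 arrays the Il1b probe ranked 10 and 2 from the brightest of all probes before scaling. The file holds no flag for saturation, so the highest values may be compressed to a degree that was not tested.

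Il1a, the IL-1 that also acts from inside the cell and at its surface, read 172.8 and 168.3 on WT CON, 214.1 and 170.7 on iNOSKO CON, 5353 and 5475 on WT M1 and 14679.5 and 13755 on iNOSKO M1. Both unstimulated groups overlap, and the M1 groups stand apart from them and from each other. The unstimulated difference of 0.16 ± 0.13 was not called (adjusted p = 0.389), in contrast to Il1b. Activation raised Il1a by 4.99 ± 0.13 in WT (adjusted p = 3.18e-05) and by 6.22 ± 0.13 in iNOSKO (adjusted p = 1.49e-05). The response was larger in iNOSKO by 1.23 ± 0.18 (adjusted p = 0.00498), and iNOSKO M1 cells lay 1.39 ± 0.13 above WT M1 cells (adjusted p = 0.000837). Il1b and Il1a were thus both above WT in the M1 state, but only Il1b was called higher before stimulation.

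Il1rn, which encodes the receptor antagonist, was measured by 3 probes. The brightest, at transcript base 2371, is annotated as specific to an isoform, so it need not measure all Il1rn mRNA. It read 280.5 and 265.8 on WT CON and 276.7 and 272.1 on iNOSKO CON. On WT M1 it read 993.9 and 1045, and on iNOSKO M1 5076 and 4675. Unstimulated values overlap, and the iNOSKO M1 arrays stand far above the WT M1 arrays. Activation raised this probe 3.73-fold in WT (SE 0.09 on the log2 scale, adjusted p = 0.000152) and 17.8-fold in iNOSKO (SE 0.09, adjusted p = 1.49e-05). The difference between these responses was 2.25 ± 0.13 on the log2 scale (adjusted p = 0.000378), the largest upward difference of response among the 6 member probes detected on all arrays.

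The probe at base 2167, which the file marks as common to the isoforms, read 4.66 and 9.72 on WT CON, 2.62 and 6.73 on iNOSKO CON, 28.3 and 28.8 on WT M1 and 191.4 and 169.5 on iNOSKO M1. It was detected on 1 of the 2 arrays in each unstimulated group. Its M1 difference of 2.66 ± 0.54 was called (adjusted p = 0.0114) and matches the brighter probe in direction, although leaving out WT M1 replicate 1 or 2 or iNOSKO M1 replicate 1 left it at adjusted p = 0.0504, 0.0506 and 0.0503. Its difference of responses, 3.34 ± 0.76 (adjusted p = 0.0196), was lost without the same arrays too (adjusted p = 0.0573, 0.0573 and 0.0558). The third probe was undetected on every array. Its base, 2217, is numbered on another version of the transcript record, so its place relative to the other probes is not known. On the log2 scale, the difference of Il1rn (base 2371) from Il1b on the same array rose by 0.97 from WT M1 to iNOSKO M1. It fell by 3.98 from WT CON to WT M1. Against Il1a the same difference rose by 0.86 from WT M1 to iNOSKO M1 and fell by 3.09 from WT CON to WT M1. The step of 0.97 rests on the Il1b probe near the top of the scale, where compression was not tested.

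The stretches upstream of these 3 genes are shown because all 3 rose together on activation. They come from RefSeq starts on GRCm38.p6 and were searched on both strands for NF-kB, ISRE, GAS (TTCNNNGAA), AP-1 (TGANTCA), C/EBP (TTGCNNAA) and PU.1 (GAGGAAGT) motifs. Capitals mark a match, and no match overlapped another. For Il1a only the 30 bases before the start are shown (chr2:129309973-129310002, minus strand). For Il1b (chr2:129371140-129371389, minus strand) and for the first start of Il1rn (chr2:24336610-24336859, plus strand) all 250 are shown.
Il1a: taaaaaggcagagaagccTGACTCAgactt
Il1b: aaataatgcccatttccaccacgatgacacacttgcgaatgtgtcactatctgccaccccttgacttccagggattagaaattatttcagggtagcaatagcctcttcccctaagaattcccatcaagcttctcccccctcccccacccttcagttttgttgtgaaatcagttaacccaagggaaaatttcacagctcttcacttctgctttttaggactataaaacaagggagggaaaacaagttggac
Il1rn: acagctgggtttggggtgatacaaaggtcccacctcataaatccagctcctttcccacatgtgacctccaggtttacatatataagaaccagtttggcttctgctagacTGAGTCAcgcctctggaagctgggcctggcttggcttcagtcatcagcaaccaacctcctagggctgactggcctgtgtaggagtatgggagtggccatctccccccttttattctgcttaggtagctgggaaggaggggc
An AP-1 match began 12 bases before the start of Il1a and 141 bases before that of Il1rn, and the Il1b window held no match to any of the 6 motifs. The windows of the other listed Il1rn starts held none of the 6 motifs. AP-1 is held by 6.75% of 32851 such windows over all genes, so a match is not particular to these genes. Its use in these cells was not measured.

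Il1r2, the decoy receptor, showed the widest range of the IL-1 receptor genes. Its probe read 7.74 and 3.60 on WT CON, of which only the first was detected. It read 114.0 and 114.8 on WT M1, 218.8 and 230.5 on iNOSKO M1 and 315.7 and 347.2 on iNOSKO CON. No groups overlap, and unstimulated iNOSKO cells, not activated ones, held the highest values. Unstimulated iNOSKO cells exceeded WT CON by 5.97 ± 0.35 (adjusted p = 0.000363), and WT cells gained 4.44 ± 0.35 on activation (adjusted p = 0.000810). Both sizes rest on WT CON values near background and fell to 4.37 and 2.84 with a floor of 16 and to 4.01 and 2.46 with neqc, still called. iNOSKO cells showed -0.56 ± 0.35 on activation (adjusted p = 0.238), and the responses differed by -5.00 ± 0.50 (adjusted p = 0.00151), or -3.13 with neqc.

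The neighbours in the order of Il1r2 levels are less certain. iNOSKO M1 lay 0.97 ± 0.35 above WT M1 (adjusted p = 0.0700) and was called when either of the WT CON arrays, which are near background and far apart on the log2 scale, was left out (adjusted p = 0.00299 without replicate 1 and 0.00294 without replicate 2). Without these arrays the change on activation of iNOSKO cells was called too (-0.54, adjusted p = 0.0124 without replicate 1 and 0.0125 without replicate 2). The comparison of iNOSKO CON with WT M1 was added after the levels had been seen. It called 3.58% of all probes higher and 9.79% lower, and of the 13 member probes it called 2 higher and 4 lower. Its counts over all probes, 496 higher and 1357 lower, are unstable, with 75 and 519 without iNOSKO CON replicate 2 and 1951 and 1612 with neqc. There Il1r2 was 1.53 ± 0.35 higher (adjusted p = 0.0480), which missed the threshold without replicate 1 or 2 of iNOSKO CON, WT M1 or iNOSKO M1 (adjusted p = 0.0753 to 0.171).

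Il1r1, the signalling IL-1 receptor, stayed near background. Its probe at base 818 read 4.05 and 10.7 on WT CON, 8.24 and 8.68 on WT M1, 4.73 and 9.21 on iNOSKO CON and 2.35 and 8.02 on iNOSKO M1, and was detected on 5 of 8 arrays. The groups overlap except that the iNOSKO M1 values both lie below the WT M1 values. The iNOSKO M1 to WT M1 difference of -0.96 ± 0.76 was not called (adjusted p = 0.344), and neither were the changes on activation. The second probe, at base 4646, was undetected on every array. A change in Il1r1 was therefore not detectable with these probes.

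Il1rap, the shared co-receptor of IL-1, has 6 probes on the array, and 3 of them sample nearly the same stretch of sequence. Bases 1067 and 1497 are numbered on a different transcript record from the bases of the other probes. The gene lies on chromosome 16. These 3 are shown because their readings part at the edge of detection, with the 47 shared bases in capitals.
Il1rap base 1067: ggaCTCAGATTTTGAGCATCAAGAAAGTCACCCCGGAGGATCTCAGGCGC
Il1rap base 1069: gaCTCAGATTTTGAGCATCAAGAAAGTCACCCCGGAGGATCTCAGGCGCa
Il1rap base 1071: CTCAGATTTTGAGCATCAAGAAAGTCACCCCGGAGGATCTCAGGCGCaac
The probe at base 1071 was detected on all 8 arrays and read 8.45 and 8.91 on WT CON, 10.6 and 12.1 on WT M1, 6.93 and 11.6 on iNOSKO CON and 24.7 and 15.1 on iNOSKO M1. Its iNOSKO M1 values were the highest and stand apart from all others. The probe at base 1069 was undetected on WT CON, read 15.3 and 8.29 on WT M1 and 5.41 and 10.7 on iNOSKO CON, and reached 22.7 and 17.1 on iNOSKO M1. The probe at base 1067 was detected on only 3 arrays, 1 of WT M1 and both of iNOSKO M1.

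All 3 probes thus had their highest mean on the iNOSKO M1 arrays, but they split the calls. On activation of iNOSKO cells the probe at base 1071 rose by 1.10 ± 0.33 (adjusted p = 0.0397) and the probe at base 1067 at least 2.11-fold (adjusted p = 0.0182), while the probe at base 1069 changed by 1.37 ± 0.53 (adjusted p = 0.0819). On activation of WT cells the probe at base 1069 rose at least 2.00-fold (adjusted p = 0.0105) and the probe at base 1067 at least 1.45-fold (adjusted p = 0.0220), while the probe at base 1071 changed by 0.38 ± 0.33 (adjusted p = 0.424). Between the unstimulated groups only the probe at base 1069 was called, at least 1.35-fold higher in iNOSKO (adjusted p = 0.0214). No Il1rap probe was called between the M1 groups (adjusted p = 0.110 to 0.658). Raising the floor from 1 to 16 left no Il1rap call. Where that floor left no change at all, or the probe was not tested, the setting is not among those counted next. The call of base 1071 on activation of iNOSKO held in 7 of 17 alternative settings, and was lost without any single array but iNOSKO CON replicate 2 and iNOSKO M1 replicate 2. That of base 1067 on activation of WT held in 9 of 15, lost without WT CON replicate 2 or either WT M1 array, and that of base 1069 between the unstimulated groups in 10 of 16, lost without WT CON replicate 1 or iNOSKO CON replicate 2. The remaining 3 probes, at bases 1244, 1497 and 2393, were detected on 0, 0 and 1 array.

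**Figure D2:**
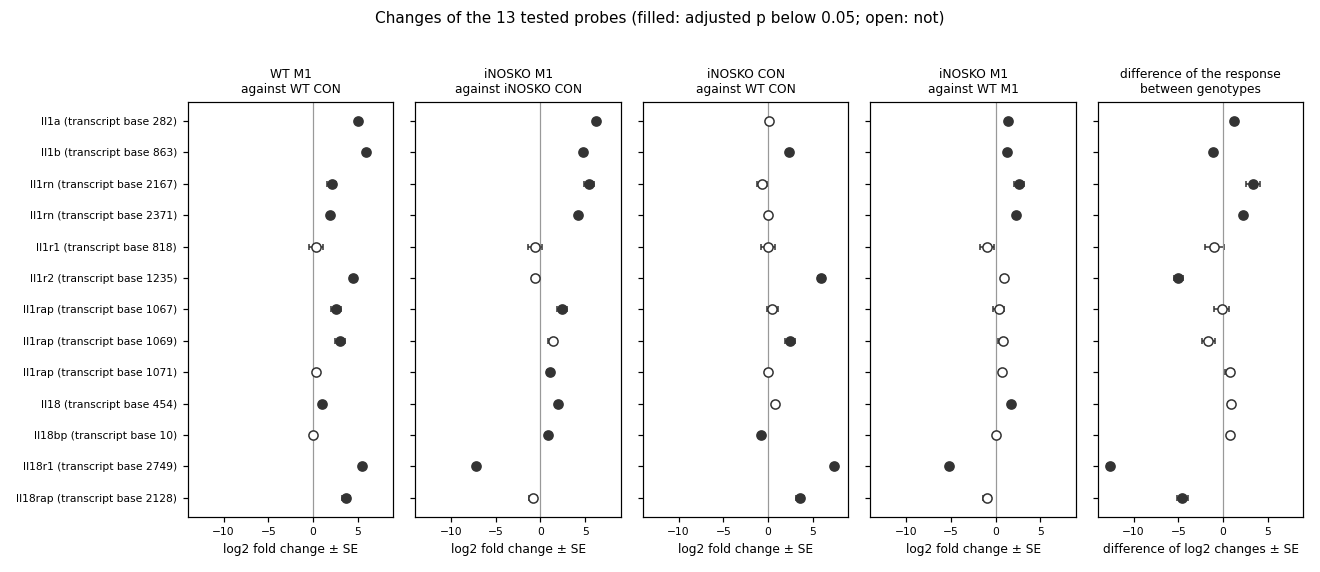
Log2 fold change with its standard error for the 13 tested probes of the 10 genes in the 4 pairwise comparisons, and the difference of the log2 changes on activation in the last panel. Filled points had an adjusted p below 0.05. Il18r1, Il18rap and Il1r2 lie to the left in the last panel, and both tested Il1rn probes and Il1a lie to the right. Fitted values of Il18r1 and Il18rap depend on the floor where the probe was undetected.

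Il18, the interleukin made as a precursor like IL-1β, was highest in iNOSKO M1 cells. It read 19.9 and 28.8 on WT CON, 41.7 and 41.3 on iNOSKO CON, 41.7 and 58.7 on WT M1 and 171.0 and 155.1 on iNOSKO M1. The WT CON arrays were lowest and the iNOSKO M1 arrays highest without overlap, and the middle groups overlap. iNOSKO M1 cells exceeded WT M1 cells by 1.72 ± 0.24 (adjusted p = 0.00313), and activation raised Il18 in iNOSKO by 1.97 ± 0.24 (adjusted p = 0.00166). The rise in WT was 1.05 ± 0.24 (adjusted p = 0.0236), which was lost without WT CON replicate 1 (0.75, adjusted p = 0.0887) or without WT M1 replicate 2 (0.81, adjusted p = 0.0871). Unstimulated cells differed by 0.79 ± 0.24 (adjusted p = 0.0571) and the responses by 0.93 ± 0.34 (adjusted p = 0.0796), neither of which was called. Its probe and that of Il1a are shown as the measured stretches of ligands called higher on activation in both genotypes (genes on chromosomes 9 and 2).
Il18 base 454: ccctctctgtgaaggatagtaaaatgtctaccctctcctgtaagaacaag
Il1a base 282: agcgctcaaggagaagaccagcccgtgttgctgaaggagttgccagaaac

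Il18bp, whose product neutralises IL-18, moved little. It read 24.2 and 17.1 on WT CON, 23.0 and 18.1 on WT M1, 11.9 and 11.8 on iNOSKO CON and 21.7 and 19.7 on iNOSKO M1. Only unstimulated iNOSKO cells stood apart, below the other groups. They were -0.78 ± 0.20 from WT CON (adjusted p = 0.0382) and gained 0.80 ± 0.20 on activation (adjusted p = 0.0233). The former call was lost without WT CON replicate 1, either iNOSKO CON array or either iNOSKO M1 array (adjusted p = 0.0610 to 0.134), and the latter without any single iNOSKO array (adjusted p = 0.0614 to 0.0969). Between the M1 groups the adjusted p was 0.958, and the iNOSKO M1 values lay within those of WT M1.

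Il18r1, the ligand-binding chain of the IL-18 receptor, was on in WT M1 and unstimulated iNOSKO cells and undetected elsewhere. It read -1.58 and -0.18 on WT CON and 1.34 and -9.23 on iNOSKO M1. It read 37.9 and 51.6 on WT M1 and 163.2 and 176.9 on iNOSKO CON. The detected groups do not overlap, and unstimulated iNOSKO cells exceeded WT M1 cells by 1.94 ± 0.20 (adjusted p = 0.00610), which was lost with an intercept in the scaling line (adjusted p = 0.183). Activation of WT cells raised Il18r1 at least 7.83-fold (adjusted p = 7.93e-05), whereas activation of iNOSKO cells lowered it at least 22.5-fold (adjusted p = 2.63e-05). Accordingly, iNOSKO cells were at least 30.1-fold above WT when unstimulated (adjusted p = 4.91e-05) and at least 5.84-fold below WT in the M1 state (adjusted p = 0.000132). The p-values beside these bounds belong to the fit with values below 1 set to 1. The change on activation differed between genotypes (adjusted p = 0.000114), and this held in all 16 alternative settings of that comparison.

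Il18rap, the signalling chain of the same receptor, was undetected on WT CON. It read 16.8 and 21.9 on WT M1, 15.6 and 19.6 on iNOSKO CON and 12.5 and 7.53 on iNOSKO M1, the last value undetected. The middle groups overlap, and the iNOSKO M1 values lie below both. Activation of WT cells raised Il18rap at least 3.40-fold (adjusted p = 0.00309), and unstimulated iNOSKO cells were at least 3.09-fold above WT (adjusted p = 0.00362). The change on activation of iNOSKO cells was -0.85 ± 0.44 (adjusted p = 0.168), and the M1 groups differed by -0.98 ± 0.44 (adjusted p = 0.124). The responses differed between genotypes (adjusted p = 0.00396). With a floor of 16 these Il18rap calls were lost (adjusted p = 0.316 for WT activation, 0.661 between the unstimulated groups and 0.242 for the difference of responses).

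Il1r2, Il1r1, Il18r1 and Il18rap lie in a cluster on chromosome 1 in the order Il1r2, Il1r1, Il1rl2, Il1rl1, Il18r1, Il18rap (RefSeq gene order). Il1rl2 is the IL-36 receptor and Il1rl1 the IL-33 receptor. All 6 genes had their WT M1 mean above their WT CON mean, and the rise was called for Il1r2, Il1rl2 (0.58 ± 0.13, adjusted p = 0.0241), Il18r1 and Il18rap. Il1rl1 was undetected on WT CON and iNOSKO M1 and detected on both arrays of WT M1 and iNOSKO CON, the same groups as Il18r1. Its changes were not called (adjusted p = 0.110 to 0.140 in the pairwise comparisons and 0.0502 for the difference of responses). On activation of iNOSKO cells Il1rl2 fell by 1.36 ± 0.13 on the log2 scale (adjusted p = 0.000785). Il1r2, at the other end of the cluster, stayed bright on the iNOSKO M1 arrays where Il18r1 was undetected. The Il1r2 probe is shown because its profile sets it apart from its neighbours.
Il1r2 base 1235: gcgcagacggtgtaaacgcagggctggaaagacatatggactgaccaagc
In the 250 bases upstream, GAS motifs were found before the start of Il1r2 (1 match, 111 bases before) and before the third listed start of Il18r1 (2 matches, 219 and 152 bases before), and 7.02% of all windows hold a GAS match. The window of Il18rap held a PU.1 match 79 bases before its start, as do 2.44% of all windows. Those of Il1rap and Il18 held none of the 6 motifs.

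**Figure D3:**
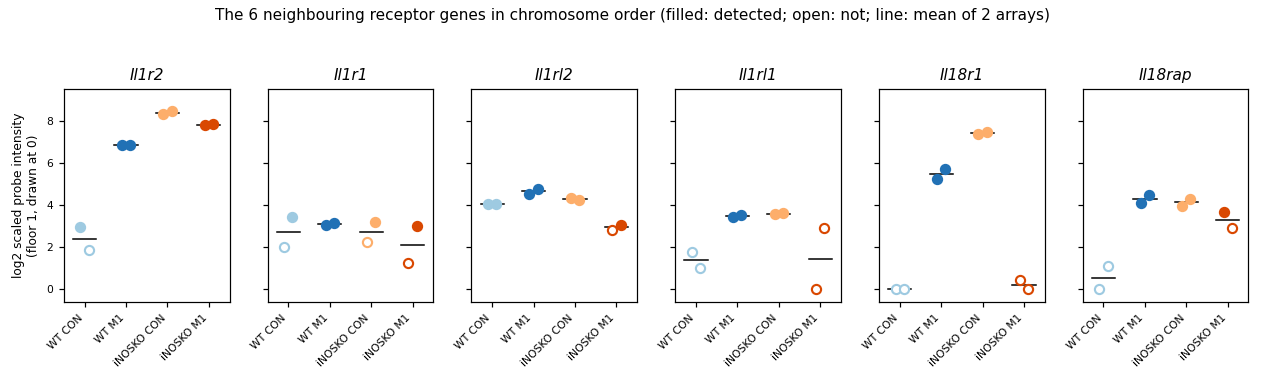
Log2 scaled intensity of the 6 neighbouring receptor genes on chromosome 1, in chromosome order and by group, 2 arrays each (values below 1 set to 1, drawn at 0; filled points detected, open points not). Il18r1 and Il1rl1 are detected on the WT M1 and iNOSKO CON arrays only, while Il1r2 is bright on all arrays except those of WT CON.

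The wider pathway was read from 4 lists of 45 genes, drawn from general knowledge, of which 42 were on the array and 39 could be tested, each by its brightest probe. Between the M1 groups 22 were higher and 6 lower in iNOSKO, beside 24.2% and 24.3% of all probes, with a median of 0.70 beside 0. On activation of WT cells 16 rose and 1 fell (20.2% and 14.9% of all probes), and on activation of iNOSKO cells 25 rose and 7 fell (26.2% and 23.8%). Between the unstimulated groups 7 were higher and 3 lower in iNOSKO, where 15.9% and 16.2% of all probes were called, so the share called higher was near that of all probes. The comparisons share arrays, so their counts are not independent of each other.

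Of 10 tested genes for cutting and releasing IL-1 and IL-18, 5 were higher, 1 (Pycard) was lower and 4 were not called in iNOSKO M1 against WT M1 cells, beside 24.2% and 24.3% of all probes. Those not called were Nlrp3, Aim2, Panx1 and P2rx7 (adjusted p = 0.0572 to 0.460). Casp4, the intracellular LPS sensor caspase, read 572 and 605 on WT M1 and 2289 and 2159 on iNOSKO M1, a difference of 1.92 ± 0.10 (adjusted p = 0.000208). Mefv, which encodes pyrin, was higher by 1.77 ± 0.31 (adjusted p = 0.00720), and the pore-forming Gsdmd (Gsdmdc1 on the array) by 1.08 ± 0.14 (adjusted p = 0.00255). Pycard, the adaptor that joins sensors to caspase-1, instead read 168 and 163 on WT M1 and 36.3 and 48.7 on iNOSKO M1, a difference of -1.98 ± 0.16 (adjusted p = 0.000593). On activation Nlrp3, the sensor of the best-known inflammasome, rose by 2.50 ± 0.30 in WT (adjusted p = 0.00310) and by 2.83 ± 0.30 in iNOSKO (adjusted p = 0.00100).

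Of 15 genes that relay the receptor signal, 8 were higher and 3 lower in iNOSKO M1 cells, beside 24.2% and 24.3% of all probes, and the share called lower was near that of all probes. The ubiquitin ligase gene Peli1 was higher by 1.95 ± 0.11 (adjusted p = 0.000271), the kinase gene Map3k7 by 1.15 ± 0.14 (adjusted p = 0.00212) and Irak2 by 0.88 ± 0.16 (adjusted p = 0.00820). The adaptor gene Ecsit was lower, at -1.02 ± 0.11 (adjusted p = 0.00149). Myd88, the adaptor shared by IL-1, IL-18 and most Toll-like receptors, rose on activation 2.01-fold in WT (SE 0.10 on the log2 scale, adjusted p = 0.00153) and 2.99-fold in iNOSKO (SE 0.10, adjusted p = 0.000170). Between the unstimulated groups 2 of the 15 were higher and 1, Tollip (-0.92 ± 0.12, adjusted p = 0.00409), was lower, no more than the 15.9% and 16.2% of all probes.

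Genes listed as feedback inhibitors of IL-1 signalling moved mostly upward on activation. Whether each of them, Nfkbiz among them, acts as an inhibitor in these cells was not tested. Activation raised 6 of 8 in WT and 8 of 8 in iNOSKO, and 7 of 8 were higher in iNOSKO M1 than in WT M1 cells, where 20.2%, 26.2% and 24.2% of all probes were called higher. Zc3h12a, an RNase that degrades cytokine mRNA, was higher by 2.10 ± 0.13 (adjusted p = 0.000314), the deubiquitinase gene Tnfaip3 by 1.83 ± 0.10 (adjusted p = 0.000227), Nfkbiz by 1.61 ± 0.10 (adjusted p = 0.000295) and Nfkbie by 1.57 ± 0.12 (adjusted p = 0.000498). Zfp36 was the member not called between the M1 groups (0.15 ± 0.11, adjusted p = 0.309). In unstimulated iNOSKO cells Nfkbie was higher by 2.65 ± 0.12 (adjusted p = 0.000165) and Nfkbia by 1.03 ± 0.10 (adjusted p = 0.00158), whereas Zc3h12a and Irak3 were lower, both by 0.51 (log2 changes of -0.51 ± 0.13 and -0.51 ± 0.11, adjusted p = 0.0367 and 0.0204).

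Among other IL-1 family ligands and receptors, 6 of 9 on the array could be tested, and between the M1 groups 2 were higher and 2 lower, close to the 24.2% and 24.3% of all probes. Il36a (Il1f6 on the array), an IL-36 ligand, read 5.57 and 9.98 on WT M1, the first undetected, and 33.2 and 30.4 on iNOSKO M1 (2.09 ± 0.28, adjusted p = 0.00287). Il33 was at least 2.41-fold higher in iNOSKO M1 (adjusted p = 0.0245). Sigirr, an inhibitory receptor of the family, was undetected on both iNOSKO M1 arrays and at least 3.61-fold below WT M1 (adjusted p = 0.000506), and Il1rl2 was lower by 1.71 ± 0.13 (log2 change -1.71, adjusted p = 0.000532). Sigirr rose by 1.51 ± 0.33 on activation in WT (adjusted p = 0.0204) and fell at least 3.46-fold in iNOSKO (adjusted p = 0.000367), the same opposite directions as Il18r1.

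**Figure D4:**
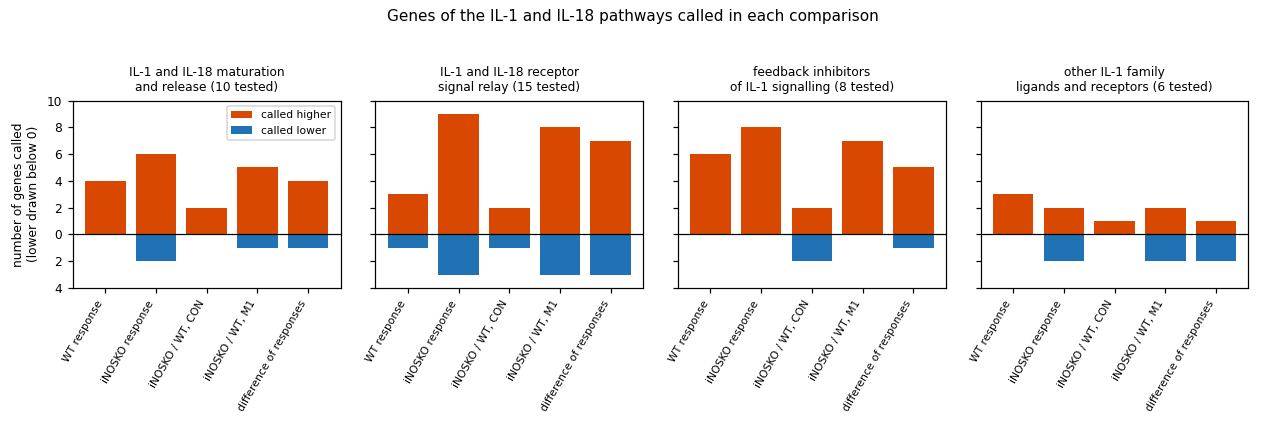
Number of genes called higher (above 0) and lower (below 0) in each of 4 IL-1 and IL-18 pathway lists, for activation in each genotype, the iNOSKO to WT comparisons and the difference of responses. All 8 genes listed as feedback inhibitors were called higher on activation of iNOSKO cells.

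Markers of other cell types moved with several of these results. All 7 macrophage markers were detected on both arrays of every group, with summed intensities of 28687 to 28717 on WT CON, 29691 to 31562 on WT M1, 23317 to 23466 on iNOSKO CON and 28102 to 29888 on iNOSKO M1. Most of each sum was Lyz2 (Lyz on the array). Of the 7 markers, 4 were called lower in iNOSKO M1 than in WT M1 cells, namely Csf1r (-1.25), Cd68 (-0.89), Itgam (-0.64) and Fcgr1, and Mertk and Emr1 were called higher (1.03 and 0.45). Of all probes, 24.3% were called lower and 24.2% higher there. Between the unstimulated groups 1 was higher and 2 were lower in iNOSKO, beside 15.9% and 16.2% of all probes. For 9 dendritic cell markers the sums were 845.9 to 853.2 on WT CON, 16571 to 17242 on WT M1, 13650 to 14531 on iNOSKO CON and 36934 to 38399 on iNOSKO M1. Flt3 was undetected throughout and Cd209a on WT CON and iNOSKO M1. Most of each sum was Ccl17 and Il4i1. Of the 8 tested markers, 7 were called higher in iNOSKO between the unstimulated groups, beside 15.9% of all probes. Itgax was not called there (0.38 ± 0.15, adjusted p = 0.126). In these 7 markers the unstimulated WT arrays stood apart from unstimulated iNOSKO arrays, as they did for Il1b, Il1r2, Il18r1 and Il18rap. For 10 granulocyte markers the sums were 947.0 to 973.8 on WT CON and 3869 to 3968 on iNOSKO M1, with 1326 to 1672 in the other groups. Mpo, Prtn3 and Retnlg were undetected throughout. Most of each sum was S100a8, and Elane (Ela2 on the array) was called in no comparison. Of the 6 tested, 5 were called higher in iNOSKO between the unstimulated groups, beside 15.9% of all probes. Between the M1 groups 3 were higher in iNOSKO and 0 lower, beside 24.2% and 24.3%. S100a9, Ngp and Camp were undetected on WT CON and detected on both arrays of every other group. S100a9 read 227 and 210 on iNOSKO CON and 711 and 766 on iNOSKO M1.

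The 8 markers of dividing cells summed to 757.5 to 838.5 on WT CON, 2343 to 2469 on WT M1, 2723 to 2770.2 on iNOSKO CON and 1074 to 1082 on iNOSKO M1. They were high in the groups where Il18r1 was detected and lower where it was not. Of 9 T and NK cell markers, 8 were undetected in every group, among them Cd3e, Ncr1 and Eomes. The exception, Klrd1, was undetected on WT CON and highest on iNOSKO CON (65.0 and 74.1). For 7 mast cell markers the sums were 42.6 to 47.5 on WT CON and 150.2 to 166.0 on WT M1. They were 225.0 to 238.4 on iNOSKO CON and 407.8 to 408.9 on iNOSKO M1. Mcpt8, Mcpt4, Ms4a2 and Cma1 were undetected throughout. Most of each sum was Gata2 and Cpa3. Fcer1a, detected on 5 of 8 arrays, was called in no comparison. Its mean log2 value was 2.90 on WT CON and 1.46 on iNOSKO M1. Fewer cells of a type and less RNA per cell cannot be told apart in these bulk samples, and the part of cell makeup in the results on these 10 genes was not tested.

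For the 6 genes with a probe detected on all 8 arrays, the probes of other genes with the most similar profile were found by the root mean square distance between log2 values centred on their own mean, among 9686 probes. Il1b lay nearest to Cd69 (distance 0.27 log2 units), Gbp2 (0.27) and a predicted locus, LOC100038882 (0.41). For Il1a the nearest were Ifit2 (0.36), the chemokine gene Cxcl2 (0.38) and A630077B13Rik (0.46). Il1rn was closest to Nt5c3 (0.16), Lcn2 (0.16) and Tnfaip3 (0.17). The neighbours of these bright members also peaked on the iNOSKO M1 arrays, which follows from how they were picked. Il18 was nearest to Swap70 (0.15) and to both Mtmr14 probes (0.19 each), Il18bp to Papss2 (0.11), Gipc1 (0.14) and Insig1 (0.16), and Il1rap (base 1071) to Dusp10 (0.14), Clec5a (0.19) and Wdr13 (0.19). All of these distances rest on 8 arrays of 4 groups and describe a shared profile only.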

How the data were processed

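RNA of 8 samples, 2 per group, was measured on Illumina bead arrays. The series' design text names MouseRef-8, the sample labels and the methods MouseWG-8. Groups come from the labels. The authors deposited the intensity of each probe as a bead average, not normalized between arrays, beside a detection p-value for every probe on every array. The header states no background subtraction, yet undetected probes lie around 0, so none was subtracted. The submitters' processing notes name GenomeStudio and limma 3.14.4. All value columns could be matched to a sample (0 unmatched).

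From the deposited intensity, arrays were put on the scale of their mean with a robust zero-intercept line (MASS 7.3.60.0.1) over probes whose rank differed by less than 0.05 of it and lay between 0.5 and 0.9 of all ranks. Values under 1 were set to 1 and log2 was taken. Probes detected (p under 0.05) on at least 2 arrays entered a one-way model of 4 groups over all 8 arrays (lmFit and eBayes, limma 3.58.1, R 4.3.3, Benjamini-Hochberg over 13868 probes). For a probe undetected on both arrays of a group, the mean of the brighter group was divided by a limit, the higher of the lowest detected value and the probe's own value on each dim array, which gives "at least N-fold".

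The 10 genes and all lists were chosen with earlier results of these data known. Named genes are all 10 genes, Nos2, up to 4 genes per pathway list and comparison with the largest called change (the higher group detected on its 2 arrays), and the 3 nearest profiles. Other genes named beside them (Nlrp3, Myd88, Tollip, Zfp36, Il1rl1, Aim2, Panx1, P2rx7 and cell type markers) belong to the lists and were picked with their values seen. A member's fold change is printed where called or at least 0.5 on the log2 scale, with a few smaller ones. Promoter windows are those of RefSeq on GRCm38.p6, which held all 10 genes. The number of arrays limits the precision, and 2 per group is few. The procedure was run on simulated data, a check that set no limit on false calls among dim probes. Alternatives were neqc, quantile normalization, a scaling line with an intercept, a floor of 16, no detection filter, detection on at least 4 arrays, the arrays of the compared groups only, a replicate block, an intensity trend, and each array left out.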

Additional observations from a re-analysis of the deposited data

Results flagged for a closer look

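The change on activation differed between genotypes, by the interaction term of the limma model, for 7 probes of 6 genes. The differences of the log2 changes (iNOSKO minus WT) were 1.23 for Il1a, 2.25 and 3.34 for the Il1rn probes at bases 2371 and 2167, -1.08 for Il1b, -5.00 for Il1r2, -4.56 for Il18rap and -12.66 for Il18r1. The values of Il18r1, Il18rap, Il1r2 and Il1rn (base 2167) depend on the floor of 1, because each had arrays undetected or near background. They are no bounds, and with a floor of 16 they became -4.88 for Il18r1 (adjusted p = 0.000287), -0.41 for Il18rap (adjusted p = 0.242), -3.40 for Il1r2 (adjusted p = 5.34e-05) and 2.66 for Il1rn (adjusted p = 0.000126). For the latter the call was lost in 4 of 16 alternative settings, with adjusted p up to 0.0573. Il18r1 was the member that changed in opposite directions, called in both genotypes.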

How the results depend on the processing

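Across 1046 recomputed log2 changes of 63 member probe results, 921 kept their direction and their side of the threshold. Runs in which a probe was not tested, or in which a floor of 16 left no change, are not counted. Of the others, 78 lost and 39 gained a call, and 8 changed sign, all 8 of results that were not called. Of 44 called results, 27 stayed called with the same sign under every alternative run. Calls of member probes numbered 6 between the M1 groups and became 10 with neqc, and between the unstimulated groups they numbered 6 and became 3 with a floor of 16. Over all probes, higher and lower calls between the M1 groups went from 3354 and 3369 to 3711 and 3881 with neqc. Between the unstimulated groups they went from 2206 and 2241 to 2117 and 2391 with that floor. Called pathway genes between the unstimulated groups numbered 10 and became 18 with neqc and 19 with an intensity trend, and 4 to 11 when an array was left out. Higher and lower calls over all probes there became 2722 and 2953 with neqc and 2625 and 2774 with the trend. With an array left out they ran from 1391 to 2244 and from 1363 to 2253. A scaling line with an intercept turned Il1r1 to 0.19 between the M1 groups, to 0.21 on activation of iNOSKO cells and to 0.57 for the difference of responses. The difference of responses of the Il1rap probe at base 1069 became 0.11 with neqc, 0.14 with the intercept and 0.30 with a floor of 16. Leaving out an array, Il1rn (base 2167) between the unstimulated groups ran from -1.34 to 0.011 and Il1r1 on activation of iNOSKO cells from -1.50 to 0.27. The cause was not tested.

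The replicate numbers did not pair the arrays (correlations of replicate differences from -0.03 to 0.03). With the replicate block 6, 6, 10, 8 and 8 member probes were called between the M1 groups, between the unstimulated groups, on activation of WT, on activation of iNOSKO and for the difference of responses, and 5 between iNOSKO CON and WT M1. Pathway genes numbered 29, 9, 18, 31 and 22 in the first 5 of these. Over all probes the block gave fewer calls in both directions in each comparison. Between the M1 groups, for example, 3123 were higher and 3148 lower. The line with an intercept moved the median log2 change of all probes from 0 to 0.20 between the M1 groups, from 0.04 to 0.16 on activation of iNOSKO and from 0.01 to 0.29 for the difference of responses, and from 0.07 to -0.08 on activation of WT. Quantile normalization moved it from 0.07 to -0.06 on activation of WT and from 0.04 to -0.13 on activation of iNOSKO. Higher calls on activation of WT were 57.6% of all calls, against 44.4% with neqc and 47.4% with quantile normalization. On activation of iNOSKO they were 52.4%, against 41.9% with quantile normalization. Between iNOSKO CON and WT M1 they were 26.8%, against 54.8% with neqc and 48.0% with quantile normalization. The slide as a block was not run because the file names no slides. Signal near background limits Il1r1, Il1rap, Il18rap and Il33.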
